A study of Drosophila melanogaster with 3 samples.

Results

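Heterochromatin protein 1 (HP1) was mapped by chromatin immunoprecipitation and sequencing (ChIP-seq) in whole Drosophila melanogaster embryos, and the HP1 peaks described here are those near the centromere on the right arm of chromosome 3. They fall into 2 sets. The first is every peak on 3RHet, the sequence that FlyBase release 5 assembled separately from the heterochromatin of that arm. The second is every peak on the 3R arm sequence whose midpoint lies in its first 3 Mb, the end that faces the centromere (inner 3R below). There were 754 peaks on 3RHet and 34 on inner 3R, 788 of the 15755 peaks of the list (5.00%). Inner 3R held 34 of the 157 peaks on the 3R arm. The last peak inside the 3 Mb limit lay at 2907084 to 2907776 with a score of 39.3, and the first one outside it at 3177810 to 3178616 with a score of 18.6.

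The series has 3 samples: 2 HP1 ChIP replicates, made with an affinity-purified rabbit polyclonal antibody raised against the full-length fly protein, and 1 input DNA sample. All 3 came from embryos of 8 to 16 h of the strain labelled Y cn bw sp, collected after 8 h of egg laying and cross-linked for 15 min in 1.8% formaldehyde. The genotype on the labels carries the visible markers y[1], cn[1], bw[1] and sp[1]. It also carries the alleles oc[R3.2], lab[R4.2] and CG33964[R4.2], and GstD5[1], Gr22d[1], Rh6[1], LysC[1], Gr22b[1] and MstProx[1]. Whole embryos mix many cell types, so a peak shows signal in the mixture and not in which cells. The authors deposited 1 list of peaks, which gives each peak's position and a score that no label or header defines. Since the list does not separate the replicates, no replicate error can be given for the values and no test over samples exists. The depth of reads is also unknown. Differences are therefore given as sizes, without a p-value.

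HP1 binds nucleosomes whose histone H3 carries H3K9 methylation and pairs with other HP1 molecules and with the enzymes that add that mark, which lets it occupy long runs of chromatin. In flies it is best known from the repeat-rich blocks next to the centromeres, where it is needed for the silencing of genes moved into them. An arm's assembled sequence usually ends within or close to that block, and the Het sequences hold pieces from inside it. What genes or repeats lie under the peaks was not analysed here, because the positions are those of release 5.

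HP1 peaks occurred in every 100 kb of 3RHet, with thinner stretches in places, and were sparse over inner 3R. 3RHet had 302.7 peaks per Mb over its 2.49 Mb, and inner 3R 11.3 per Mb, a ratio of 26.7. Peaks covered 778788 bp of 3RHet, 31.3% of its bases, and 32490 bp of inner 3R, 1.08%, a ratio of 28.9. Against the first 1 Mb of 3R alone, which held 19 peaks per Mb, the ratio of densities was 15.9. The length of 3RHet was taken as the end of its last peak, 2490582, as no sequence lengths were given.

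Along 3RHet each 100 kb held between 7 and 52 peaks, with a median of 32, and 19 of its 25 bins held at least 20. The fullest bins by covered bases were 1900 to 2000 kb with 52.2%, 1600 to 1700 kb with 48.8% and 1400 to 1500 kb with 45.2%. The emptiest were the last, from 2400 kb on, with 3.70%, 300 to 400 kb with 5.50% and 400 to 500 kb with 9.03%. Even these low bins held 7, 10 and 12 peaks. By 500 kb sections, the share of bases under peaks was 25.4%, 32.7%, 35.2%, 44.1% and 18.7% from the first section to the last. Peaks were thus most extensive between 1500 and 2000 kb. Beyond 2100 kb the bins held fewer peaks than the median bin, with 19, 23, 17 and 7. Their covered shares were 14.1%, 12.8%, 29.05% and 3.70%, so the stretch was not evenly thin.

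Inner 3R had no HP1 peak in 17 of its 30 bins of 100 kb. No bin held more than 7 peaks, and its 3 bins with most peaks held 16 of the 34. By covered bases the fullest were 800 to 900 kb with 5.99%, 1100 to 1200 kb with 4.79% and 2000 to 2100 kb with 3.59%. The fullest bin of inner 3R thus lay above the 2 emptiest of 3RHet and below its other bins. The first 1 Mb of 3R held 19 peaks over 1.62% of its bases, the second 7 over 0.857% and the third 8 over 0.772%. In its first 100 kb, the stretch of the arm nearest to the centromere, inner 3R had 4 peaks and 3.45% of bases covered.

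**Figure D1:**
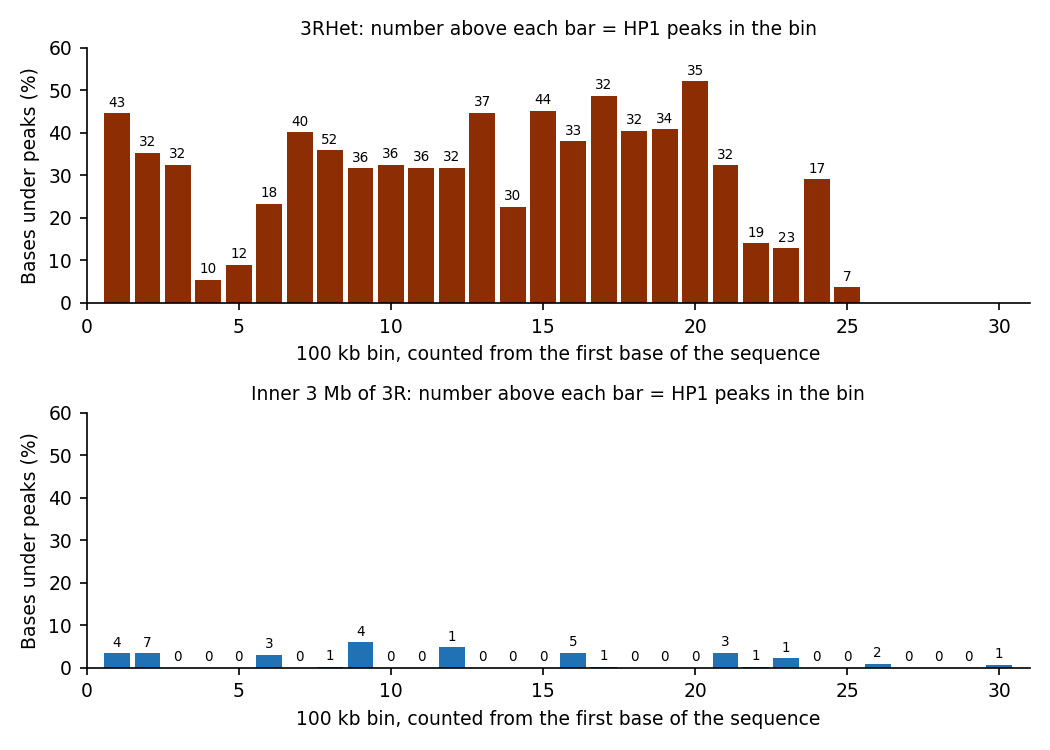
Share of bases under HP1 peaks (%, y axis) in each 100 kb bin (x axis) of 3RHet (top) and of the inner 3 Mb of 3R (bottom), on the same scale, with the number of peaks above each bar. All 25 bins of 3RHet hold peaks and reach up to 52.2%, while 17 of the 30 bins of inner 3R hold none and the highest reaches 5.99%.

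To follow how far HP1 ran without a break, peaks separated by less than 1 kb were joined into domains. 3RHet formed 283 domains and inner 3R 20, which is 113.6 and 6.67 domains per Mb, a ratio of 17.0. The median domain was 1997 bp long on 3RHet (quartiles 725 and 3999.5 bp) and 677.5 bp on inner 3R (quartiles 318 and 2819 bp). That ratio of 2.95 depended on the joining distance and on the peaks included. It was 1.87 with gaps under 500 bp joined, 13.4 with gaps under 5 kb joined, and 1.02 among peaks that scored at least the list's median of 20.96. Domains held 2.66 peaks on average on 3RHet and 1.7 on inner 3R.

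Long domains made the upper end of the 3RHet distribution. Of its 283 domains, 111 were single peaks (39.2%), 70 held 2 peaks and 50 held 5 or more. Those 50 held 330 of the 754 peaks and 49.9% of all bases under peaks on 3RHet. On inner 3R, 14 of the 20 domains were single peaks, 5 held 3 peaks and 1 held 5. There were 41 domains on 3RHet longer than the longest of inner 3R, and 18 reached 10 kb, with 30.7% of its covered bases. A larger set tends to reach further, and 3RHet has 283 domains against 20. How much of the count of 41 comes from set size was not tested, so no difference in kind is read from it. Within domains, peaks filled 83.0% of the bases on 3RHet and 88.2% on inner 3R. Single-peak domains are filled completely by definition, and joined gaps are under 1 kb, so nothing is read from these shares.

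The 5 longest domains of 3RHet lay apart from one another. The longest, from 2075537 to 2102375, held 15 peaks over 26839 bp, 80.0% of it under peaks. The next ran from 1637470 to 1661287 with 6 peaks over 23818 bp, 95.1% filled. It contains the second highest score of 3RHet, 119.6, and the widest peak, 8953 bp. The domain from 1774036 to 1797594 had 10 peaks over 23559 bp, and that from 888827 to 911616 had 13 over 22790 bp. The fifth, from 1944237 to 1963417, held 8 peaks over 19181 bp. Of these 5 domains, 4 lay beyond 1500 kb.

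On inner 3R the longest domain, from 872071 to 878502, was 6432 bp long with 3 peaks. It contains the highest score of inner 3R, 76.5, in a peak from 873104 to 877992. The second, from 2002107 to 2007017, held 3 peaks over 4911 bp. A single peak from 1164354 to 1169140, 4787 bp wide with a score of 63.2, stood alone as the third. The domain with most peaks, 5, ran from 1573854 to 1578162, and the fifth longest, from 579229 to 582988, held 3. The other domains with 3 peaks lay at 185505 to 186853 and 188887 to 191391, only 2033 bp apart. The remaining 13 domains were single peaks 203 to 2503 bp wide, and the outermost of them were the first and last members, at 1492 to 1907 and 2907084 to 2907776.

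With peaks joined at 1 kb, the sets differed more in the space between domains than in the length of domains. The median gap from one peak to the next was 539 bp on 3RHet (quartiles 222 and 2049 bp) and 16937 bp on inner 3R (quartiles 352 and 126536 bp). Gaps under 1 kb made up 471 of 753 on 3RHet (62.5%) and 14 of 33 on inner 3R (42.4%), against 43.9% over the whole list. Unplaced sequence, U and Uextra, makes up 66.0% of that list. Within domains the median gap was 264 bp on 3RHet and 242 bp on inner 3R, but such gaps are under 1 kb by definition, so nothing is read from their likeness. Between domains, where gaps are at least 1 kb by definition, the median was 3127 bp on 3RHet and 108628 bp on inner 3R, 34.7 times as long on inner 3R.

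The overall median gap on inner 3R is a poor summary, because short and very long gaps occur in nearly equal numbers. Only 1 of its 33 gaps, that of 2033 bp, fell between 1 and 10 kb, and 18 were of 10 kb or more. With the window set at the first 5 Mb, the median gap of the 3R window was 1093 bp in place of 16937 bp. The density stayed at 12.0 peaks per Mb and the covered share at 1.09%.

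Long stretches without a peak also occurred on 3RHet. There were 30 gaps of 10 kb or more, and together they took 682451 bp, 27.4% of the sequence. On inner 3R the 18 such gaps and the 92224 bp from the last peak to the end of the window, also without a peak, took 98.7% of the 3 Mb. The longest gaps of 3RHet ran from 434694 to 521243 (86550 bp), from 298670 to 367973 (69304 bp) and from 2371197 to 2432574 (61378 bp). The first 2 lie in and beside the thin bins between 300 and 600 kb, and the third runs into the emptiest bin, from 2400 kb on. Outside these stretches peaks covered 43.1% of 3RHet and 80.5% of inner 3R. With the end of the window counted as sequence outside them, the share of inner 3R was 24.5%, so no direction is given. The longest gaps of inner 3R were 404713 bp (1169141 to 1573853), 387837 bp (191392 to 579228) and 348517 bp (1653590 to 2002106). Whether a gap on 3RHet is sequence without HP1 signal, sequence to which reads could not be placed, or a join between assembled pieces cannot be told apart from the list.

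**Figure D2:**
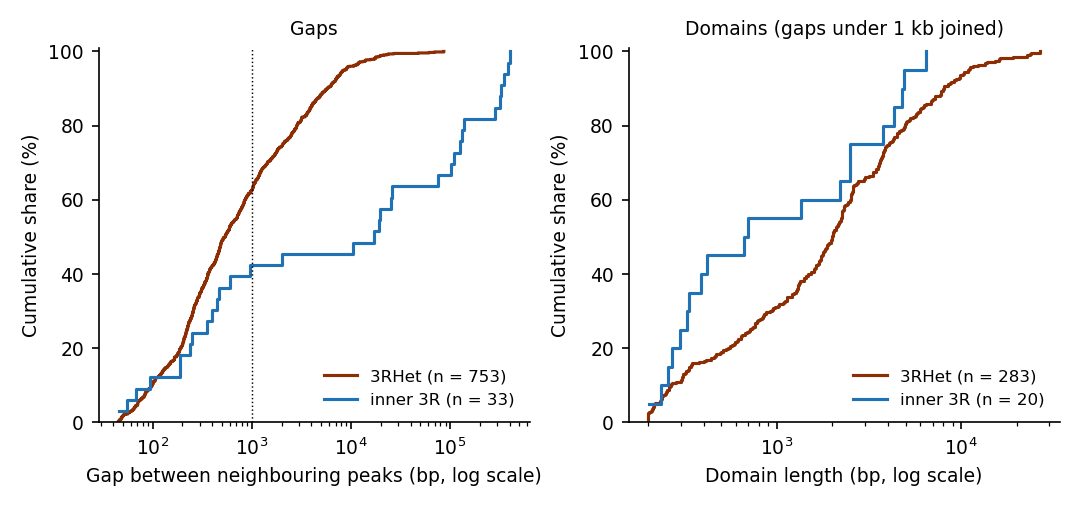
Cumulative share (%, y axis) of gaps between neighbouring HP1 peaks (left) and of domain lengths (right), both in bp on log scales, for 3RHet and inner 3R, with 1 kb marked by the dotted line. The curves of gaps are already apart at 1 kb, beyond which 37.5% of the 3RHet gaps and 57.6% of the inner 3R gaps lie. The 283 domains of 3RHet reach 26839 bp and the 20 of inner 3R reach 6432 bp, and a larger set tends to reach further.

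Single peaks differed far less than their spacing. The median width was 534.5 bp on 3RHet (quartiles 312 and 1072 bp) and 432 bp on inner 3R (quartiles 279 and 1062 bp), a difference of 102.5 bp. The median score was 17.7 on 3RHet (quartiles 12.3 and 30.1) and 16.4 on inner 3R (quartiles 11.3 and 27.2), a difference of 1.31 in the score's own units. Both differences turned round among peaks that scored at least 20.96, 311 on 3RHet and 12 on inner 3R, to -477 bp and -3.76. No direction is therefore given for width or score between the sets.

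Set against the whole list, which is mostly U and Uextra, peaks of 1 kb or more took a larger share on 3RHet. Peaks at least 1 kb wide made up 210 of 754 on 3RHet (27.9%) and 9 of 34 on inner 3R (26.5%), against 16.5% over the whole list. On the rest of 3R they were 30 of 123 (24.4%), also above the list, so the larger share was not particular to 3RHet. Scores in the list's upper quartile, 34.59 or more, were reached by 154 of 754 peaks on 3RHet (20.4%) and by 7 of 34 on inner 3R (20.6%), against 25.4% over the whole list. The counts on inner 3R are too small to be read against the list. For the same reason, nothing is read from the likeness of these shares in the 2 sets.

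Wider peaks had higher scores, with a Spearman correlation of 0.85 over the 754 peaks of 3RHet and 0.79 over the 34 of inner 3R. Peaks share libraries and neighbouring sequence, so these are descriptions only. In most classes of width the median scores of the sets lay close. Peaks of 200 to 299 bp had a median score of 10.4 on 3RHet (n = 166) and 10.7 on inner 3R (n = 10). From 300 to 499 bp the medians were 14.3 (n = 189) on 3RHet and 15.1 (n = 9) on inner 3R, and from 500 to 999 bp they were 20.5 (n = 189) and 18.6 (n = 6). From 1000 to 2999 bp they were 35.7 on 3RHet (n = 149) and 34.02 on inner 3R (n = 7). Each inner 3R median lay within 2 score units of its 3RHet counterpart in these classes. At 3000 bp or more the medians were 63.2 on 3RHet (n = 61) and 69.8 on inner 3R (n = 2).

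**Figure D3:**
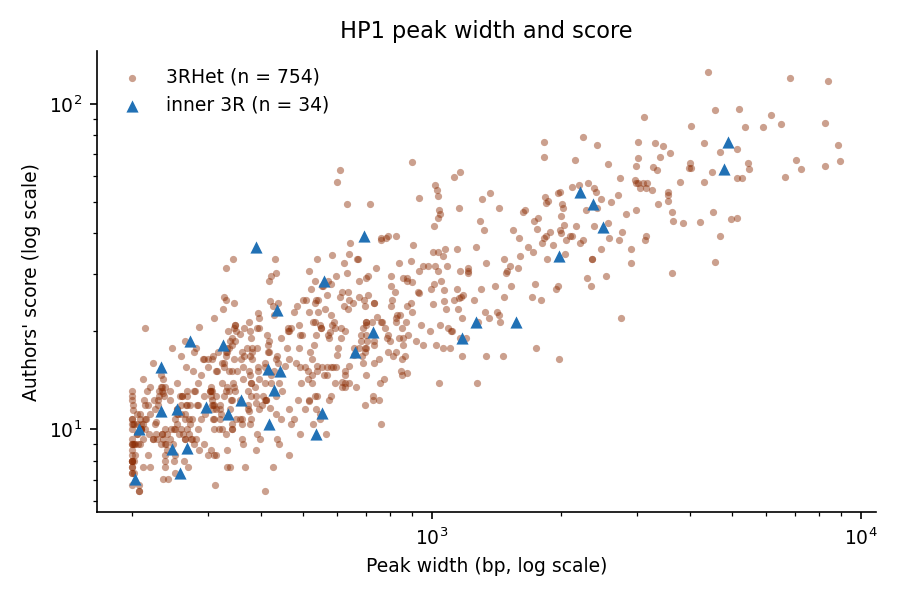
Width (bp, x axis, log scale) and the authors' score (y axis, log scale) of each HP1 peak on 3RHet (754 circles) and inner 3R (34 triangles). Most inner 3R peaks lie within the cloud of the 3RHet peaks. One of 388 bp, with a score of 36.3, lies above all 3RHet peaks of 300 to 499 bp, which reach 33.5, and inner 3R ends at 4889 bp and a score of 76.5.

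Broad peaks of 3 kb or more numbered 61 on 3RHet, 8.09% of its peaks and 36.5% of its covered bases. Their share of peaks was 9.68% on 3LHet, 7.37% on 2RHet and 4.96% on 2LHet. Over the inner windows of X, 3L, 2L and 2R it ran from 3.09% to 16.6%. The share over the whole list was not computed. Inner 3R had 2 such peaks, with scores of 76.5 and 63.2, and they made up 29.8% of its covered bases. On 3RHet the broad peaks had a median score of 63.2 and a range from 30.1 to 125.4. There were 21 peaks on 3RHet wider than the widest of inner 3R, and 13 with a score above its highest. A larger set tends to reach further, so no difference in kind is read from these counts.

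The 5 highest scores on 3RHet belonged to peaks of 4400 to 8373 bp. The highest, 125.4, was a peak from 1824802 to 1829201. The next were 119.6 from 1638269 to 1645119, 117.1 from 1784532 to 1792904, 96.7 from 1954260 to 1959463 and 95.9 from 624416 to 628980. In the whole list of 15755 scores they ranked 85, 110, 122, 230 and 234. Of these 5, 4 lay between 1600 and 2000 kb, in the section with the highest covered share. The widest peaks were 8953 bp (1645301 to 1654253, score 66.7), 8848 bp (2338828 to 2347675, score 74.6) and 8373 bp, the peak scoring 117.1. The peak of 8848 bp lies in the bin from 2300 to 2400 kb, which held 17 peaks and had 29.05% of its bases covered. The sequence opened with a peak from 1814 to 7286 with a score of 63.2 and closed with one from 2490233 to 2490582 with a score of 10.8.

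On inner 3R the scores after 76.5 and 63.2 were 53.4 (2242479 to 2244689), 49.1 (580620 to 582988) and 41.8 (29502 to 32004), in peaks 2211 to 2503 bp wide. These sites were spread over the window, and the nearest to the centromeric end was the lowest of the 5. Between the high sites lay weaker ones, and 22 of the 34 peaks scored below the list's median. The other 12 (35.3%) reached it, against 311 of 754 on 3RHet (41.2%). A median splits the list near its middle by definition, and the count on inner 3R is too small to be read against it.

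Among the Het sequences, 3RHet had values close to those of 2RHet. It had 302.7 peaks per Mb against 318.8 on 2RHet, 31.3% of bases covered against 31.9%, a median width of 534.5 bp against 560 bp and a median score of 17.7 against 17.3. 3LHet, from the other arm of the same chromosome, was covered more, at 42.8%, with a median width of 669 bp and a median score of 22.4. 2LHet, only 0.365 Mb long, had 33.95% of bases covered. XHet and YHet lay lower, with 11.7% and 2.42% of bases covered and 156.9 and 34.6 peaks per Mb.

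Inner 3R stood lower than the same window of the other arms. Peaks covered 1.08% of inner 3R, against 33.6% of the inner 3 Mb of 2R, 25.3% of 3L, 16.5% of 2L and 2.68% of X. Its 34 peaks compare with 577, 570, 350 and 97. The median width of its peaks, 432 bp, and their median score, 16.4, were below those of these 4 windows, which ran from 588 to 803 bp and from 17.7 to 25.4. These medians were not recomputed under other score limits, and inner 3R has only 34 peaks, so no direction is read from them. Where each arm sequence stops relative to its heterochromatin was not known here, so these windows need not be equivalent stretches of chromatin.

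Inner 3R had a higher density of peaks than the remaining 24.9 Mb of its own arm, 11.3 per Mb against 4.94, a ratio of 2.29. The covered share was 1.08% against 0.453%, a ratio of 2.39. The first 5 Mb of 3R held 12.0 peaks per Mb and 1.09% covered bases, so these higher values were not confined to inner 3R. Peaks of the rest of 3R had a median width of 603 bp and a median score of 19.5, and the quartiles of both measures overlapped with those of inner 3R. They were more often close neighbours: 14 of 33 gaps on inner 3R (42.4%) were under 1 kb, against 71 of 122 on the rest of 3R (58.2%). No test of these differences between sequences was possible with 1 list.

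**Figure D4:**
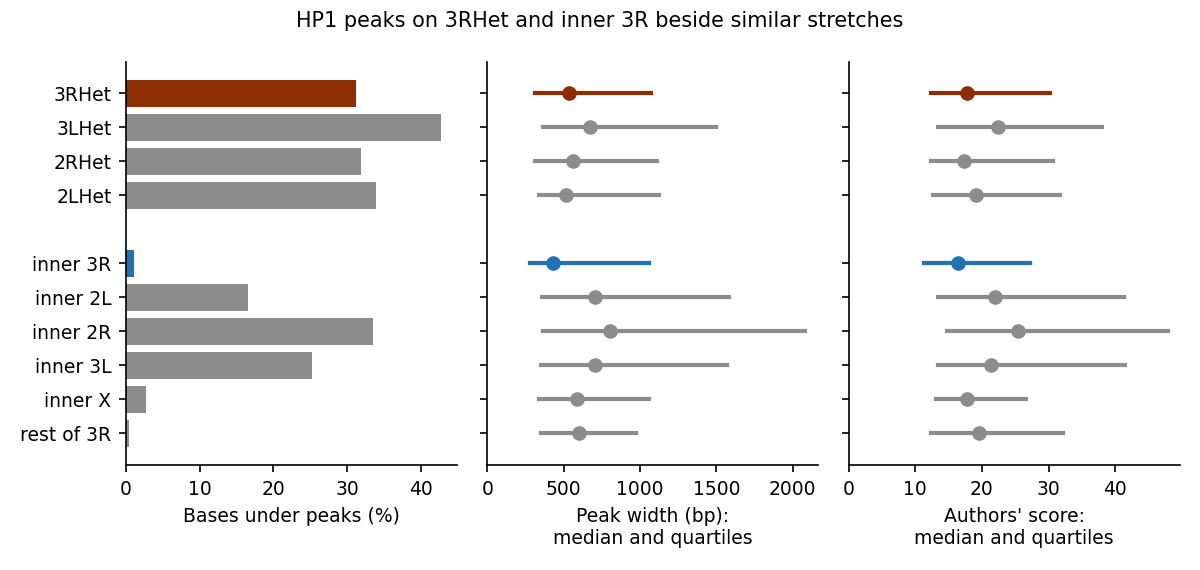
Share of bases under HP1 peaks (%, bars, left), peak width (bp, middle) and the authors' score (right) on 3RHet and the 3 other autosomal Het sequences and on inner 3R, the inner 3 Mb of 4 other arms and the rest of 3R. Points are medians and lines run between the quartiles, which describe peaks and not replicates. Covered shares run from 0.453% to 42.8%, while the quartile ranges of width and score overlap throughout.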

How the data were processed

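HP1 ChIP-seq peaks were analysed from 1 list for the 3 samples. The positions are of FlyBase release 5 and the peaks carry the name MACS, per the file headers. CASAVA (1.7.0.2, 1.7.0.3), BWA and MACS2 are named by the submitters' processing notes. No source used here states parameters, threshold, pooling of replicates or the placement of repeated reads. The score per peak is the authors' deposited value of unstated scale, used only within this list.

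Starts count from 0 in the list (1 start equals 0) and are printed counting from 1. Peaks were assigned by midpoint, and width was end minus start. A gap ran from a peak's end to the next start. Peaks with gaps under 1 kb formed a domain. Inner windows of 2L, 3L and X end at the last peak. Python 3.11.15, numpy 2.4.6 and pandas 2.3.3 were used, and the functions were tested on simulated data. Alternatives changed the score limit, window, merging, joining distance, length and widths. A value was taken to have moved when it changed by over 1.5 times. Regions named are the 5 highest scores, 3 widest peaks, 5 longest domains, 3 longest gaps, end peaks and 3 extreme bins of each set. Members, lists and rules were chosen with earlier results of these data known.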

Additional observations from a re-analysis of the deposited data

How the results depend on the processing

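Of 40 alternative values, 18 stayed within 1.5 times of the reported one in the same direction, 20 moved by more and 2 turned round; the causes were not tested. The ratio of density, 3RHet to inner 3R, was 15.9 with inner 3R as the first 1 Mb and 17.0 with peaks within 1 kb merged. That of the covered share ran from 19.3 to 30.3 under its 6 alternatives. The ratio of median domain length (2.95) was 1.02 among scores of at least the list's median, 1.20 among those of at least its upper quartile, 4.80 and 1.68 with windows of 1 and 5 Mb, and 1.87, 4.66 and 13.4 with gaps under 500 bp, 2 kb and 5 kb joined. That of the median gap (0.032) was 0.0074 and 0.015 under the same score limits and 0.086 and 0.493 with windows of 1 and 5 Mb. The median score difference (1.31) was -3.76 at the median limit, 1.93 at the upper quartile limit and 2.18 in the 1 Mb window. With peaks merged it was 7.19, but a merged region takes the highest score of its peaks. Merged regions of 3RHet held more peaks on average, so 7.19 is not a difference between single peaks. The median width difference (102.5 bp) was -477 bp and 50 bp under the score limits and 175.5 bp in the 1 Mb window. With peaks merged it was 1319.5 bp, which is the difference in median domain length, gaps inside domains included. The ratio of the fullest bin (8.72) was 18.1 with bins of 250 kb. The covered share of inner 3R over that of inner 2L (0.066) was 0.036 with windows of 1 Mb.

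No paired analysis was possible because the list has no value per replicate, and leaving out a replicate was not possible for the same reason. Depth is unknown, so the counting error of weak peaks on inner 3R could not be estimated.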

Other observations

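The authors' scores took few distinct values. The 15755 peaks of the list shared 1884 scores, and the 754 peaks of 3RHet shared 195. Of the 34 peaks of inner 3R, 18 had a score that also occurred, to the last printed digit, on 3RHet. The score 63.17, for example, belonged to the peak of 4787 bp that stands alone on inner 3R, and to the first peak of 3RHet, 5473 bp wide. Among the 10727 peaks with scores under 30 there were 671 distinct values. Ties at low scores therefore limit how finely peaks can be ranked. The closest neighbours anywhere in the list were 45 bp apart.

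On 3RHet the closeness of neighbours was compared between classes of peak width. The median gap to the nearer neighbour was 278.5 bp for peaks of 200 to 299 bp and 297 bp for those of 3 kb or more. Peaks with both neighbours within 1 kb made up 31.3% of those of 200 to 299 bp, 41.3% from 300 to 499 bp, 42.9% from 500 to 999 bp, 67 of 149 from 1000 to 2999 bp and 34.4% of the broadest.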
